A study of Rattus norvegicus with 6 samples.

Results

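The secreted antagonists and modulators of bone morphogenetic proteins (BMPs) were followed as transcripts in cultures of rat retinal ganglion cells (RGCs), whose axons carry signals from the eye to the brain. The 10 genes were taken by symbol from the deposited expression table: chordin (Chrd) and its relatives Chrdl1 and Chrdl2, noggin (Nog), the follistatin group Fst, Fstl1 and Fstl3, and Twsg1, Bmper and Grem1. All 10 were found among the 17366 transcripts of the table. Levels are FPKM, fragments scaled by transcript length and by library size, so they can be set against each other per length. The cultures came from Sprague Dawley rats labelled age P5 and were grown for 10 days. The treated group received Chrdl1 protein at 1 µg/ml for 12 h. The control group received the vehicle, 0.1% BSA with 4 mM HCl, for the same time. BSA and HCl are listed for the control group only, and whether the Chrdl1 protein came in the same carrier is not given. The labels give the 2 groups no other difference. There were 3 libraries per group. Each title ends in a code that 1 vehicle and 1 Chrdl1 library carry: RGCControl052416 and RGCtreat052416 are called pair A, RGCControl092016 and RGCtreat092016 pair B, and RGCControl092716 and RGCtreat092716 pair C. What the code stands for is not given, nor whether the libraries are separate cultures or animals. The p-values therefore cover the spread among the libraries as deposited, which may be technical.

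BMPs are secreted ligands of the TGF-beta superfamily that bind type I and type II serine/threonine kinase receptors and act through receptor-regulated Smads. Secreted antagonists bind the ligands outside the cell and keep them from the receptors, and some are themselves regulated by other secreted proteins: tolloid proteases cleave chordin, and Twsg1 binds both chordin and BMPs. In the developing eye, BMP signalling is known for patterning the retina along its dorsal to ventral axis. Chrdl1, the protein added here, belongs to the chordin family, whose cysteine-rich repeats bind BMPs.

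Read totals per library, worked back from the FPKM steps, ran from 14546600 to 26551800, and 1 read was worth 0.0377 to 0.0687 FPKM at 1 kilobase of transcript. Of 12 listed RGC markers, 11 were in the table, all but Pou4f1, and none was at 0. Their summed level was 2645 to 3237 FPKM in vehicle and 2537 to 3248 FPKM in Chrdl1 libraries. Sncg, Nefl and Tubb3 had the highest means, at 948, 597 and 428 FPKM. No threshold was set for these levels, so they do not test RGC identity. The extraction protocol in the labels names visual cortex, whereas the source name, the cell type and the growth and treatment protocols name RGCs. Of the 11 tested RGC markers 8 were called between title codes, as 47.4% of all tested transcripts were. In pair B minus pair A, 2 were called higher and 3 lower, among them Tubb3, a neuronal tubulin, at -0.98 on the log2(FPKM + 1) scale. In pair C minus pair B, Thy1, a surface glycoprotein, was the 1 called higher, at 0.85. There 4 were called lower, among them Pou4f2 at -0.50 and Isl1 at -0.41. These named markers were chosen after their values were seen. The libraries of pairs B and C stood apart in markers of other cell types, whose values are given beside the members they move with.

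**Figure D1:**
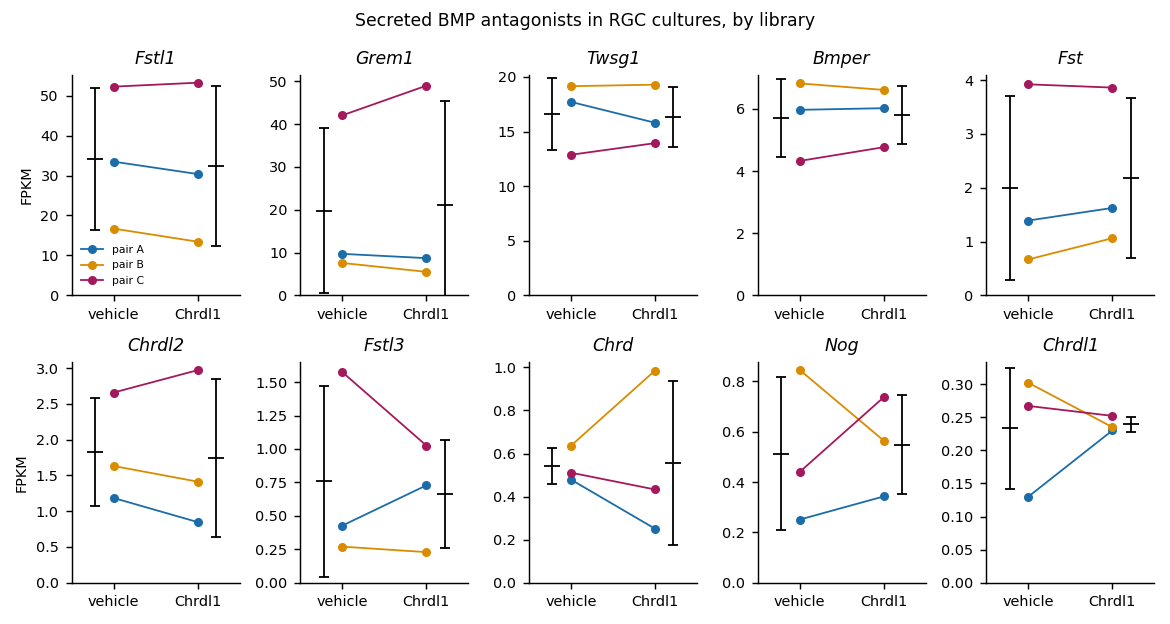
FPKM (vertical axis, from 0, 1 scale per gene) of each of the 10 members in vehicle and Chrdl1 libraries; lines join libraries with the same title code, and black bars show each group's mean with its SD (n = 3). The SD bar of Grem1 in the Chrdl1 group, 21.1 ± 24.2 FPKM, stops at 0. Fstl1, Grem1, Fst and Chrdl2 were highest in pair C with and without Chrdl1, and Twsg1 and Bmper were lowest there.

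Fstl1, a secreted glycoprotein with a follistatin domain, was the most abundant member. For pairs A, B and C in turn, its vehicle libraries were at 33.5, 16.7 and 52.2 FPKM and its Chrdl1 libraries at 30.4, 13.4 and 53.2 FPKM. The libraries of a pair lay close together and the pairs did not overlap, so that the ranges of the treatment groups covered each other. Its mean of 33.2 FPKM over the 6 libraries stood at percentile 87.5 of all transcripts in the table, and it rested on 548 to 3124 reads per library. The transcript, NM_024369, lies on the minus strand of chromosome 11 from 65792201 to 65845375 of rn6.

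Grem1, encoding gremlin 1, which binds and blocks BMP2, BMP4 and BMP7, was the second most abundant on average. In the order A, B, C, its vehicle libraries held 9.715, 7.59 and 42.0 FPKM and its Chrdl1 libraries 8.71, 5.52 and 49.0 FPKM. Both libraries of pair C stood far above the other 4, and 1 code therefore carried most of the mean of 20.4 FPKM. The transcript, NM_019282, is 3805 bases long and lies on chromosome 3 from 105203309 to 105214989, minus strand. It rested on 420 to 4509 reads.

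Twsg1, encoding twisted gastrulation, the chordin and BMP binding protein, had the narrowest range of the 10. Its vehicle libraries, again in the order A, B, C, were at 17.7, 19.2 and 12.9 FPKM and its Chrdl1 libraries at 15.8, 19.3 and 13.9 FPKM. Its highest library was 1.498 times its lowest, where that ratio was 3.96 for Fstl1 and 8.88 for Grem1. Here pair C was the lowest and pair B the highest in both groups. Its transcript of 664 bases, NM_001108811, gave 185 to 293 reads per library; it lies on chromosome 9 from 113701476 to 113729404, plus strand.

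Bmper, a secreted BMP-binding protein of the crossveinless-2 type that can inhibit or promote signalling, followed the same order. The vehicle values were 5.97, 6.82 and 4.33 FPKM and the Chrdl1 values 6.03, 6.61 and 4.77 FPKM, from 374 to 570 reads. Pair C was lowest again, and the groups overlapped. NM_001135799 lies on chromosome 8 from 24369916 to 24615479, plus strand.

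Fst, encoding follistatin, the activin-binding protein, and Chrdl2, a second chordin-like protein, were low. Fst was at 1.39, 0.669 and 3.92 FPKM in vehicle and 1.625, 1.06 and 3.86 FPKM in Chrdl1 libraries, from 10 to 107 reads. Pair C was highest and pair B lowest. Its transcript is NM_012561, chromosome 2 from 46538756 to 46544452, minus strand. Chrdl2 was at 1.19, 1.63 and 2.66 FPKM in vehicle and 0.848, 1.41 and 2.97 FPKM in Chrdl1 libraries, from 30 to 109 reads. Pair C was highest and pair A lowest, and both libraries of pair C lay above the other 4. Its transcript is NM_001107537, chromosome 1 from 165008997 to 165036431, plus strand.

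The other 4 members were rare. Fstl3, a follistatin-like inhibitor of activin and myostatin, was at 0.427, 0.270 and 1.575 FPKM in vehicle and 0.728, 0.229 and 1.03 FPKM in Chrdl1 libraries, from 3 to 32 reads. Fstl3 (NM_053629) lies on chromosome 7 from 12806031 to 12810556, minus strand. Chordin itself, which holds BMPs in an inactive complex, was at 0.479, 0.636 and 0.511 FPKM in vehicle and 0.251, 0.985 and 0.433 FPKM in Chrdl1 libraries, from 19 to 73 reads. Noggin, which binds BMPs with high affinity, was at 0.251, 0.846 and 0.440 FPKM in vehicle and 0.343, 0.565 and 0.737 FPKM in Chrdl1 libraries, from 10 to 29 reads. Chrd (NM_057134) lies on chromosome 11 from 83858503 to 83867203 and Nog (NM_012990) on chromosome 10 from 76811759 to 76813386, both on the minus strand. For these rare transcripts the groups overlapped and the pairs went in different directions. Of the 4, only Fstl3 had both libraries of pair C above the other 4 libraries.

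The gene of the added protein was the lowest member on average. Chrdl1 mRNA was at 0.130, 0.302 and 0.267 FPKM in vehicle libraries A to C, from 13, 18 and 29 reads. The Chrdl1-treated libraries were at 0.230, 0.235 and 0.252 FPKM, from 22, 22 and 25 reads. The lowest of these, in the vehicle library of pair A, had an exact Poisson 95% interval of 0.0691 to 0.222 FPKM, and the highest, in the vehicle library of pair B, one of 0.179 to 0.478 FPKM; intervals cover counting error only. The intervals of these libraries overlapped, and the values were not tested against each other. NM_199502 lies on chromosome X from 114554359 to 114658931, minus strand.

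The order of the levels was partly fixed and partly not. Fstl1 was above Grem1 in 6 of 6 libraries, although their ranges over libraries overlapped. Grem1 was above Twsg1 in only 2 of 6 libraries, both of pair C. Twsg1 was above Bmper, and Bmper above Fst, in 6 of 6 libraries with ranges that did not overlap. Fst and Chrdl2 changed places between libraries (Fst higher in 4 of 6), as did Fstl3 and Chrd (3 of 6) and Chrd and Nog (3 of 6). Nog was above Chrdl1 in 6 of 6 libraries, with overlapping ranges.

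**Figure D2:**
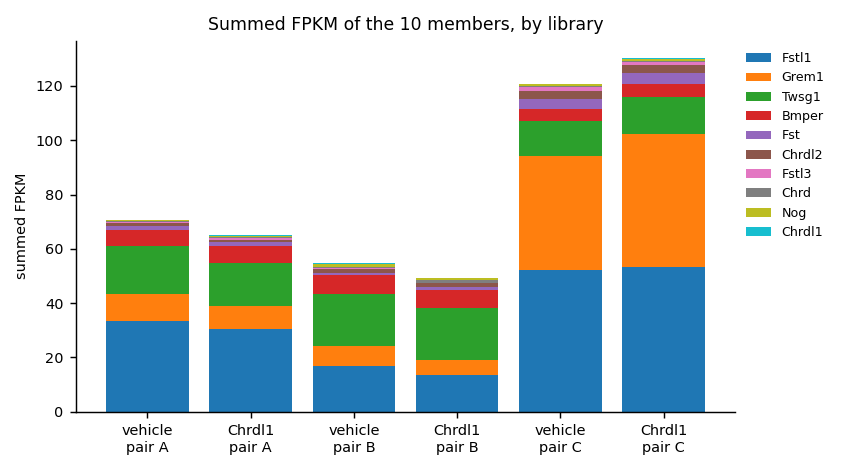
Summed FPKM of the 10 members (vertical axis, from 0) in each library, split by gene, ordered by pair. Both libraries of pair C stand highest, at 121 and 130 FPKM, and the part taken by Grem1 is largest there.

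The family total and its makeup differed by pair. Summed over the 10 members, the vehicle libraries held 70.7, 54.6 and 121 FPKM for A, B and C, and the Chrdl1 libraries 64.9, 49.4 and 130 FPKM. Fstl1, Grem1 and Twsg1 together made up 77.5% to 89.2% of this sum in each library. Grem1 took 13.7%, 13.9% and 34.8% of it in vehicle and 13.4%, 11.2% and 37.6% in the Chrdl1 libraries. Twsg1 took its largest share in pair B, 35.1% in vehicle and 39.1% in Chrdl1 libraries. Its share in pair C was 10.7% in both groups. Chordin, its relative and noggin were small parts: Chrdl2 took 1.31% to 2.99%, Chrd 0.333% to 1.995% and Nog 0.355% to 1.55%.

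The treatment comparison asks whether the added antagonist altered the transcripts of its own family within 12 h. No member passed the test. Of the 10 members, 6 were at FPKM 1 or more in 3 or more libraries and entered the limma fit on log2(FPKM + 1), in which 0% of the 10390 tested transcripts were called at an adjusted p under 0.05, with 18 transcripts and 0 members at an unadjusted p under 0.05. With the title code as a replicate block, again 0% were called, with 535 transcripts and 0 members at an unadjusted p under 0.05. Fold changes are given as Chrdl1 minus vehicle in log2(FPKM + 1), a scale that shrinks the changes of rare transcripts.

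Grem1 averaged 19.8 ± 19.3 FPKM (SD, n = 3) in vehicle and 21.1 ± 24.2 FPKM in Chrdl1 libraries. Its log2 fold change was -0.11 ± 0.88 (SE), with a 95% interval from -2.19 to 1.98. With the block the interval was -0.33 to 0.12, and the pairs A, B and C were at -0.14, -0.40 and 0.22. Pair C went up where pairs A and B went down, and the sign of the uncalled value turned with single libraries: it was 0.61 without vehicle library C, 0.19 without Chrdl1 library A and 0.48 without Chrdl1 library B, fits in which a code was present in 1 group only.

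Fstl1 averaged 34.1 ± 17.8 FPKM in vehicle and 32.3 ± 19.95 in Chrdl1 libraries. Its log2 fold change was -0.13 ± 0.55, and under the block its interval ran from -0.30 to 0.03 (limma adjusted p = 0.872). This was the smallest adjusted p of a member under the block. Pairs A and B were lower with Chrdl1, by -0.14 and -0.29, and pair C was at 0.03.

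Twsg1 and Bmper had the smallest fitted changes of the 6. Twsg1 was at 16.6 ± 3.29 FPKM in vehicle and 16.3 ± 2.72 FPKM in Chrdl1 libraries, and its log2 fold change was -0.01 with an interval from -0.44 to 0.41, and from -0.19 to 0.16 with the block. Its sign turned with the scaling, to 0.016 after quantile normalization, 0.0033 after median centring and 0.052 with voom. Bmper was at 5.71 ± 1.27 FPKM in vehicle and 5.80 ± 0.941 FPKM in Chrdl1 libraries, and its log2 fold change was 0.03 with an interval from -0.43 to 0.49, and from -0.18 to 0.24 with the block.

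Fst was at 1.99 ± 1.71 and 2.18 ± 1.48 FPKM, with a log2 fold change of 0.14 ± 0.47 and a block interval from -0.13 to 0.41. Chrdl2 was at 1.82 ± 0.755 and 1.74 ± 1.10 FPKM, with -0.08 ± 0.33 and a block interval from -0.36 to 0.20. The 6 tested members split into 2 positive and 4 negative fold changes, with a median of -0.05, beside a median of -0.03 over all tested transcripts. None was higher, and none lower, with Chrdl1 in all 3 pairs, where 7.55% and 19.5% of tested transcripts were. None had every Chrdl1 library above or every one below the vehicle libraries, as 0.577% and 1.87% of tested transcripts had.

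The 4 members under the filter were fitted without a filter, on 14171 transcripts. Chrd, Chrdl1, Nog and Fstl3 then had log2 fold changes of -0.01 ± 0.17, 0.01 ± 0.06, 0.04 ± 0.17 and -0.04 ± 0.31 (SE). In FPKM alone, the Chrdl1 library was at 0.524, 1.55 and 0.847 times its vehicle partner for Chrd and at 1.77, 0.778 and 0.944 times for Chrdl1 mRNA in pairs A, B and C. In neither gene did the 3 pairs share a direction.

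**Figure D3:**
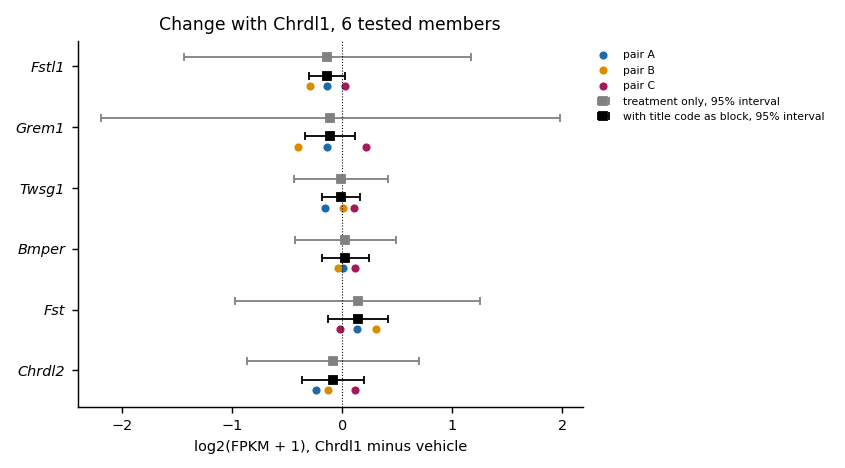
Change in log2(FPKM + 1) with Chrdl1 (horizontal axis) of the 6 tested members; squares with bars are limma estimates with 95% intervals without and with the title code as a block, and circles are the pairs. All intervals cross 0, and those with the block are narrower.

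Differences between title codes were larger than the spread within them for every tested member. They were tested with a limma F test of the 3 codes with treatment as a second term, which called 47.4% of all tested transcripts, so that a call is common in these libraries and is not particular to the family. All 6 tested members were called, with adjusted p from 1.1e-08 for Grem1 to 0.0150 for Bmper. Without a filter on low values Bmper missed the threshold (adjusted p = 0.0574). The 2 libraries of a code may come from a single preparation, and the p-values measure the spread between them.

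Grem1, Fstl1, Fst and Chrdl2 were higher in pair C. Grem1 averaged 9.21 FPKM in pair A, 6.55 in pair B and 45.5 in pair C. It was 4.94 times as high in pair C as in pair A, a log2 difference of 2.18 ± 0.13 (SE, adjusted p = 1.4e-07), and 6.95 times as high as in pair B, at 2.63 ± 0.13 (adjusted p = 5.7e-09). Fstl1 averaged 31.9, 15.1 and 52.7 FPKM and differed between all 3 pairs: pair C exceeded pair A by 0.71 ± 0.09 and pair B by 1.75 ± 0.09, and pair B was below pair A at -1.04 ± 0.09. Fst in pair C exceeded pair A by 0.96 ± 0.15 and pair B by 1.40 ± 0.15. Between pairs B and A it just missed the threshold, at -0.43 (adjusted p = 0.0510). It was also not called there without a filter (-0.43, 0.0885), after quantile normalization (-0.32, 0.144) or with voom on recovered reads (-0.79, 0.139). It was called there with a pseudocount of 0.1 (-0.76, 0.0389), after median centring (-0.49, 0.0306) and without vehicle library C (-0.43, 0.0475), Chrdl1 library B (-0.56, 0.0345) or Chrdl1 library C (-0.43, 0.0472). Chrdl2 in pair C exceeded pairs A and B by 0.92 ± 0.16 and 0.60 ± 0.16. The last value missed the threshold after quantile normalization, at 0.27 (adjusted p = 0.188), and without the Chrdl1 library of pair C, at 0.45 (adjusted p = 0.115).

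Twsg1 and Bmper ran the other way. Twsg1 averaged 16.8 FPKM in pair A, 19.2 in pair B and 13.4 in pair C, with log2 differences of -0.49 ± 0.10 between pairs C and B (adjusted p = 0.00216) and -0.30 ± 0.10 between pairs C and A (adjusted p = 0.0345). The second was lost without vehicle library A (-0.19, adjusted p = 0.493), vehicle library C (-0.21, 0.157) or Chrdl1 library A (-0.41, 0.0902), without a filter (0.0731) and with voom on recovered reads (-0.40, 0.0544). Bmper averaged 5.9995, 6.72 and 4.55 FPKM and was lower in pair C than in pair B by -0.48 ± 0.12 (adjusted p = 0.00903). That call was lost without the vehicle library of pair B (-0.43, 0.0533) or of pair C (-0.41, 0.0536). Its difference from pair A, -0.34 ± 0.12, just missed the threshold (adjusted p = 0.0501) and passed it after quantile normalization (-0.60, 0.00776), median centring (-0.45, 0.0135) and with voom (-0.47, 0.00434). It also passed without a treatment term (-0.34, 0.0399) and without vehicle library B (-0.34, 0.0288) or Chrdl1 library B (-0.34, 0.0286).

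Read against the background, 4 of the 6 tested members were called higher in pair C than in pair A, where 21.0% of all tested transcripts were, and 4 were higher than in pair B, where 20.2% were. Lower in pair C were 1 member against pair A (background 9.94%) and 2 against pair B (11.7%). Between pairs B and A, Fstl1 and Grem1 were called lower in pair B (background 15.0%) and none higher (14.0%). Grem1 was at -0.45 ± 0.13 there, and its call was lost without a filter (adjusted p = 0.109), without the vehicle or Chrdl1 library of pair A (0.0886 and 0.0614) and without the Chrdl1 library of pair B (0.233). Both libraries of pair C lay above the other 4 for Grem1, Fstl1, Fst and Chrdl2, as for 23.4% of tested transcripts, and below them for Twsg1 and Bmper, as for 14.7%.

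Fstl3, which missed the filter, had the same order as Fst. Fitted without a filter it was higher in pair C than in pair B by 0.87 on the log2(FPKM + 1) scale (adjusted p = 0.0149); pair B gave 3 and 4 reads there, and pair C gave 32 and 19. Its difference from pair A was 0.54 (adjusted p = 0.0645). Chrd, Nog and Chrdl1 gave no called difference between codes in that fit. The 2 groups of members therefore held follistatin-type genes, Grem1 and Chrdl2 on the side high in pair C, and Twsg1 and Bmper on the side low in pair C.

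**Figure D4:**
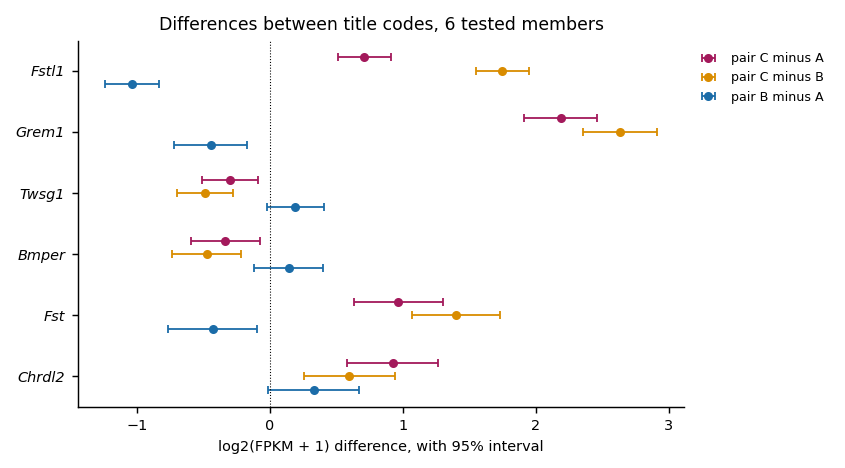
Difference in log2(FPKM + 1) between title codes (horizontal axis) for the 6 tested members, with 95% intervals from limma. Pair C minus pairs A and B is positive for Fstl1, Grem1, Fst and Chrdl2 and negative for Twsg1 and Bmper.

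Promoter sequences of members that moved together across codes are shown for what they share apart from their level. RefSeq windows of the GRCr8 build, 250 bases before to 50 after the annotated start, were found for 8 of the 10 members, all but Fst and Chrdl2. Twsg1 is on the minus strand in GRCr8 and on the plus strand in rn6, the build of the positions given above. The windows below run 5′ to 3′ on the gene's strand; capitals mark GGCGCC, a GC-rich motif bound by BMP Smads, and CAGAC or its reverse complement GTCTG, a Smad-binding motif. The first pair was high in pair C of the libraries, the second pair low there, and Chrdl1 is the gene of the added protein.
Grem1 (chr3:120978270-120978569, minus strand): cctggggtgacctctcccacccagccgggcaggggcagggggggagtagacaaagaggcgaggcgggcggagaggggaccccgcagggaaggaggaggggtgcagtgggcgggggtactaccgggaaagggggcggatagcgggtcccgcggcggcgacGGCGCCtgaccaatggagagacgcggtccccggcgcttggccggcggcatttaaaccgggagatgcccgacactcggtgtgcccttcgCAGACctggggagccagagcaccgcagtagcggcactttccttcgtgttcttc
Fstl1 (chr11:76454004-76454303, minus strand): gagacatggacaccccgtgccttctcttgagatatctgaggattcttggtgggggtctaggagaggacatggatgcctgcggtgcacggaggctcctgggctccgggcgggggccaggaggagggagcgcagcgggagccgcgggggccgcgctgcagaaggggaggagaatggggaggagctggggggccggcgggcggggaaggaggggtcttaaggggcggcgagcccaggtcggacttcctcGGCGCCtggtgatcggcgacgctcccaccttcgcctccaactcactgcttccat
Bmper (chr8:30007916-30008215, plus strand): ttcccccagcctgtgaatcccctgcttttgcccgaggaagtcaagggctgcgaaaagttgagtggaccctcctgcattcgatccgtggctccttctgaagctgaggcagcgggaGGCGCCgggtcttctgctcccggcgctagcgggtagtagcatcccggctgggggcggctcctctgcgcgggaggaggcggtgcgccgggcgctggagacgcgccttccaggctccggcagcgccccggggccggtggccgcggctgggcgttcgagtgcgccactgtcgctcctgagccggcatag
Twsg1 (chr9:113014266-113014565, minus strand): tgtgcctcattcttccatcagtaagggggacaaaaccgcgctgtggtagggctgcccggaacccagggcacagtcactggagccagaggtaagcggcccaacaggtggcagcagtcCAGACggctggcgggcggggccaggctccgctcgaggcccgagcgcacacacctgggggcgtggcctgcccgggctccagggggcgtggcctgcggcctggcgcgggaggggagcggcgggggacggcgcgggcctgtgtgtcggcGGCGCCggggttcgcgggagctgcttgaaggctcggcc
Chrdl1 (chrX:111789612-111789911, minus strand): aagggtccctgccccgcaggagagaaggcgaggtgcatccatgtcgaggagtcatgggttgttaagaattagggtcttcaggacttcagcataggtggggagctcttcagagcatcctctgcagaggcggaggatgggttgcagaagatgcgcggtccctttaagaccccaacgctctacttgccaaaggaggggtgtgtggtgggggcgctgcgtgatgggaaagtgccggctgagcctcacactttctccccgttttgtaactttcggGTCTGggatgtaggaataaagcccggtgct

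GGCGCC was in 6 of the 8 windows (Grem1, Fstl1, Bmper, Twsg1, Chrd and Nog), on either side of the split by title code. It is in 11.0% of all 33469 RefSeq windows of this length and in 33.1% of the 8091 windows with at least 20 CpG. Of the windows shown, Grem1, Fstl1, Bmper and Twsg1 hold 28, 23, 31 and 29 CpG and Chrdl1 holds 13, beside a median of 7 over all windows. With the annotated start at 0, GGCGCC begins at -91 in Grem1, -4 in Fstl1, -136 in Bmper and 12 in Twsg1. CAGAC, read on both strands, was in 6 of 8 windows, where 50.1% of all windows hold it; it begins at -3 in Grem1, -134 in Twsg1 and 20 in Chrdl1. TATAAA was in 1 of 8 windows, that of Fstl3, at -28, and in 14.2% of all windows. TGAGTCA, the AP-1 motif, was in 0 of 8 and in 4.63% of all windows. A match describes letters and not binding.

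Markers of other cell types also differed between the title codes. The stromal and mural list had 12 of 14 genes in the table, 8 of them tested. Its summed level was 255, 66.0 and 427 FPKM in vehicle libraries A, B and C, and 236, 45.1 and 415 FPKM in Chrdl1 libraries. All 8 tested genes were called higher in pair C than in pairs A and B, where 21.0% and 20.2% of all tested transcripts were. All 8 were called lower in pair B than in pair A, where 15.0% were. The levels of Fstl1, Grem1 and Fst also had this order. Col1a2 was listed at 0 in all libraries. Decorin (Dcn), a fibroblast proteoglycan, was at 0 in all 4 libraries of pairs A and B and at 5.21 and 4.76 FPKM in pair C. The part of these markers in the levels of Grem1, Fstl1 and Fst was not tested. In bulk RNA, fewer cells of a type and less RNA per cell cannot be told apart.

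Other lists moved too. The 12 microglia and macrophage markers, 10 of them tested, summed to 227, 27.8 and 276 FPKM in vehicle and 189, 14.9 and 251 FPKM in Chrdl1 libraries. All 10 were called lower in pair B than in pair A (15.0% of all tested transcripts), as Fstl1 was. Only 3 of the 10 were called higher in pair C than in pair A (21.0%). None of the list was at 0 throughout, but Cx3cr1 was at most 0.063 FPKM. The 10 photoreceptor and bipolar markers summed to 16.6, 16.3 and 89.2 FPKM in vehicle and 16.5, 16.8 and 94.2 FPKM in Chrdl1 libraries, highest in pair C, as Grem1 was. Astrocyte and Müller glia markers, 12 genes, summed to 510 to 965 FPKM in vehicle and 487 to 851 FPKM in Chrdl1 libraries, highest in pair C. Clu and Dkk3 led this sum, at 371 and 185 FPKM on average, and Dkk3 was highest in pair A. Of the 6 tested genes of this list, 4 were called higher in pair C than in pair A (21.0% of all tested transcripts). Gfap was at most 1.24 FPKM and Aqp4 at most 0.017 FPKM. The endothelial list, 8 genes, summed to 2.91 to 9.42 and 2.68 to 11.1 FPKM, with Cldn5 at 0 in 5 of 6 libraries. Oligodendrocyte and Schwann markers, 8 genes, summed to 13.6 to 19.2 and 14.5 to 16.7 FPKM. The 10 amacrine and horizontal cell markers, with Lhx1 at 0, summed to 141 to 169 and 131 to 164 FPKM. The microglia, astrocyte and Müller glia, endothelial, and amacrine and horizontal cell sums were highest in pair C and lowest in pair B in both groups. The stromal sum had that order too, so the order was not particular to the stromal list. Single genes did not all share it. Of 6 tested amacrine and horizontal cell markers, 2 were called lower in pair B than in pair A and 1, Gad2, higher. In pair C minus pair B, 3 of these 6 were called higher and 2 lower. Of 2 tested endothelial markers, 1 was called lower in pair B than in pair A and 1, Kdr, higher. Over all tested transcripts 15.0% were lower there and 14.0% higher. The part of these lists in the members' differences was not tested.

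**Figure D5:**
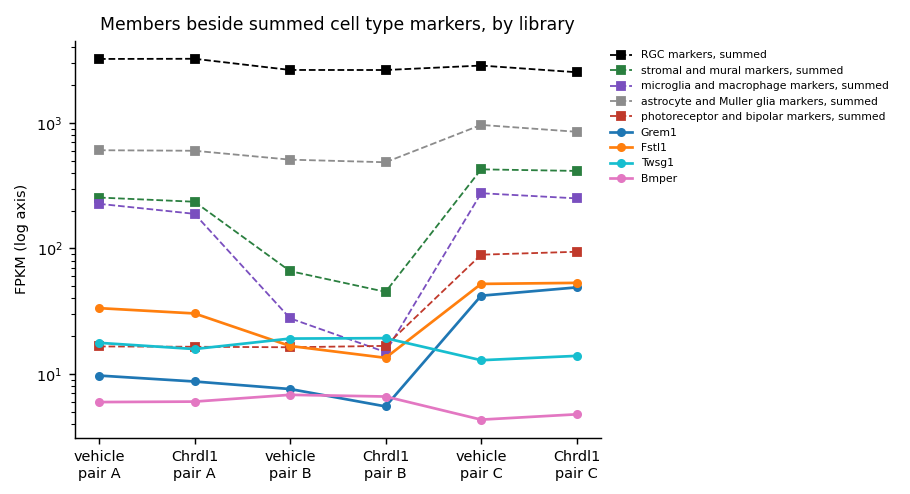
FPKM on a log axis (vertical) of Grem1, Fstl1, Twsg1 and Bmper, beside the summed FPKM of 5 marker lists, in the 6 libraries ordered by pair (horizontal). Stromal markers run from 45.1 to 427 FPKM and have the order of Fstl1 between pairs. The microglia and macrophage sum and the astrocyte and Müller glia sum have that order too. The RGC marker sum runs from 2537 to 3248 FPKM.

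Transcripts nearest to a member in pattern were named for the 4 tested members whose log2(FPKM + 1) spanned more than 1, by the smallest root mean square difference between profiles centred over the 6 libraries. For Fstl1 these were Ripk3, Dhrs3 and B2m, at 0.04, 0.06 and 0.07. For Grem1 they were Bgn, Rbp3 and Gsta1, at 0.09, 0.11 and 0.13. Bgn encodes the proteoglycan biglycan and stood at 15.3, 11.4 and 63.7 FPKM in vehicle libraries A, B and C. In the same libraries Rbp3 stood at 1.07, 0.419 and 8.02 FPKM and Gsta1 at 1.85, 1.795 and 13.3 FPKM. For Fst they were C1qtnf5, Gpc4 and Shroom2, at 0.08, 0.08 and 0.11, and for Chrdl2 Actl6a, Ntng1 and Eml5, at 0.05, 0.07 and 0.08. The libraries share title codes, so the 6 points are not independent.

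The tested genes of the rest of the pathway gave no call with Chrdl1 either. Cer1 among the modulators, Gdf2 among the ligands and Smad9 were listed at 0 in all 6 libraries. Of 23 other secreted modulators 20 were in the table and 14 were tested, with 0 called, 9 positive and 5 negative fold changes and a median of 0.01. Htra1, a secreted serine protease, was at 104.8 FPKM on average and Bmp1, a tolloid protease that cleaves chordin, at 26.1 FPKM, which is above Chrd at 0.549 FPKM. Smoc1, a secreted calcium-binding BMP modulator, was higher in pair C than in pair A by 1.33 on the log2 scale and was chosen after its values were seen.

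Among 22 listed ligands of the BMP, GDF and activin type 21 were in the table and 10 were tested, with 0 called and a median of -0.05. Gdf11 and Gdf1 had the highest levels, at 30.2 and 21.6 FPKM. Bmp4, a ligand that chordin, noggin and gremlin bind, was at 3.76, 1.30 and 6.06 FPKM in vehicle and 4.59, 0.743 and 5.86 FPKM in Chrdl1 libraries; it had the order of Fstl1 between pairs and was chosen after its values were seen. Of 8 receptors 6 were tested with 0 called and a median of -0.01; Bmpr2, a type II receptor, and Acvr1b, a type I receptor, were at 33.5 and 19.4 FPKM. Of 8 Smads 6 were tested with 0 called and a median of -0.01; Smad2 and Smad1 were at 24.6 and 18.4 FPKM. Of the 6 listed membrane co-receptors and pseudoreceptors 4 were in the table and tested with 0 called and a median of 0.03, led by Rgma and Eng at 27.7 and 8.37 FPKM.

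Direct BMP targets, 11 listed and 7 tested, had 0 called with Chrdl1 and a median of 0.15, beside -0.03 over all tested transcripts. Id1, Id2 and Id3, inhibitors of basic helix-loop-helix factors, averaged 12.5, 24.8 and 25.4 FPKM. Their log2 fold changes were 0.27 ± 0.48, 0.20 ± 0.44 and -0.18 ± 0.43 (SE). These SEs come from the fit without the block and include the spread between pairs, so they do not measure the spread of the paired changes. In the fit of code and treatment together, the SE of pair C minus pair A was 0.109, 0.096 and 0.092 for Id1, Id2 and Id3. Id1, Id2 and Id4 were higher with Chrdl1 in all 3 pairs, as 7.55% of tested transcripts were. Id4 moved little in pairs A and B, from 8.31 to 8.37 and from 11.15 to 11.19 FPKM. Id3 and Hey1 were lower in all 3 pairs, as 19.5% of tested transcripts were. For the other tested targets, Smad7 and Bambi, the pairs went in different directions. With the title code as a block, 0 of the 7 tested targets were called. Between codes 5 of the 7 were called, against 47.4% of tested transcripts. Id1 was at 5.25, 10.6 and 18.6 FPKM in vehicle libraries A, B and C, and at 7.26, 13.4 and 19.95 FPKM in Chrdl1 libraries. Pair A was the lowest for Id1, whereas for Fstl1 and Grem1 pair B was the lowest.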

How the data were processed

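Polyadenylated RNA of 6 libraries was measured, 3 per group. The authors deposited 1 table of FPKM values, 1 RefSeq transcript per row with its length, per the file headers. The submitters' processing notes name FastQC, STAR 2.4.0k, HOMER 4.8.3 and build rn6; the annotation release and any read filter: not given in the sources used here. Libraries were stranded, per the labels' protocols.

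Reads were recovered from FPKM and length; within the rounding of 0.0005 FPKM, 99.99% to 100% of the values checked came out whole, where 6.65% to 11.9% would by chance, and voom on these reads called 0 transcripts for treatment. The test ran in limma 3.58.1 (R 4.3.3) over the 10390 transcripts, 6 members among them, that held FPKM 1 or more in 3 or more libraries (lmFit, eBayes with trend, two-sided, Benjamini-Hochberg over all of them, threshold 0.05) on log2(FPKM + 1), for treatment and, with treatment as a term, for title code. Members and lists were chosen with earlier results of these data known. Named genes were all members, the 2 most abundant of each pathway list where none was called, Id1 to Id3 and nearest profiles. Smoc1, Bmp4, Id4, Hey1, Smad7, Bambi and the single cell type markers named (Dcn and others) were chosen after their values were seen. Same-code deviations correlated at 0.82, 0.86 and 0.84, so codes were taken as pairs. Scripts were tested on simulated data. Alternatives were pseudocount 0.1, filters, scalings, voom with TMM on recovered reads, the replicate block and leaving out libraries. Sequences are RefSeq's; proteins were not used here. Python 3.11.15 was used.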

Additional observations from a re-analysis of the deposited data

How the results depend on the processing

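No member was called for treatment in any of the 18 fits tried, and the smallest adjusted p of a member was 0.736. Over all transcripts, the fits with all 6 libraries gave 0 calls for treatment, also with the replicate block (paired fit, 0 calls) and with voom. With the block and 1 pair left out there were 0 to 34 calls, 25 without pair A and 34 without pair B, no member among them. Signs of members without a call turned: Twsg1 to 0.016 with quantile normalization, 0.0033 with median centring, 0.052 with voom and 0.0064 with voom and the block, and Grem1 to 0.039 with voom and the block. With the block and a pair left out, Twsg1 was at 0.058 without pair A, Grem1 at 0.037 without pair B and Bmper at -0.014 without pair C. Over the fits that left out libraries, the log2 fold change ran from -0.99 to 0.61 for Grem1, -0.58 to 0.37 for Fstl1, -0.21 to 0.57 for Fst, -0.39 to 0.17 for Chrdl2, -0.17 to 0.095 for Twsg1 and -0.13 to 0.15 for Bmper; a fit without 1 library has a code in 1 group only. Transcripts differing between codes numbered 4930, and 3148 (without the Chrdl1 library of pair A) to 5581 with 1 library left out. Pairwise differences between codes whose call changed are given beside their results. Depth limits Fstl3, Nog and Chrdl1, at 3 to 32 reads, and Fst in pair B, at 10 reads in vehicle and 25 in the Chrdl1 library.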
